A study of Mus musculus with 9 samples.

Results

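The genes described here encode the nuclear subunits of respiratory complex III (9 genes), cytochrome c (1 gene, Cycs), complex IV (13 genes) and the ATP synthase (15 genes). They were taken by symbol from the table of all genes, and all 38 were found among its 18062 genes. The data are 9 RNA sequencing libraries from the white part of the mouse gastrocnemius, a calf muscle. The knock-out libraries, ko1 to ko5, come from mice of 5 months in which exon 6 of Gaa was disrupted, with loxP sites in the flanking introns. Gaa encodes lysosomal acid alpha-glucosidase, and its loss models Pompe disease. The wild-type libraries, wt1 to wt4, come from 2 samples of 5 months and 2 of 6 months, and the columns do not tell which is which. All samples are labelled with 1 mixed background, BL6/129j, and the protocol describes a colony kept for over 20 generations by mating brothers with sisters. Values are RPKM, a measure of reads relative to transcript length and to library size.

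Complex III passes electrons from ubiquinol to cytochrome c, which carries them to complex IV, where oxygen is reduced to water. Both complexes pump protons out of the mitochondrial matrix, and the ATP synthase lets them flow back to make ATP. White gastrocnemius is mostly fast, glycolytic fibre with fewer mitochondria than slow muscle. Several subunits come as isoforms: Cox6a2, Cox7a1 and Cox8b are the heart and muscle forms of subunits whose widespread forms are Cox6a1, Cox7a2 and Cox8a, while Atp5g1, Atp5g2 and Atp5g3 encode the same mature c subunit with different import sequences.

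Gaa lay between 3.11 and 3.64 RPKM in the knock-out libraries and between 46.0 and 56.0 in the wild type. The steps of the low values put 1 RPKM of 1 kilobase at 17.7 to 37.6 reads for ko1 to ko5 against 37.2 to 64.35 for wt1 to wt4, so ko3 was the shallowest library and wt3 the deepest. The RPKM values of a library added up to 349239 to 374056 for ko1 to ko5, above the 315337 to 327517 of wt1 to wt4. The members had an estimated 186 reads (Cox6a1, in the library where it had fewest) to 116647 reads (Atp5b), which is a counting error of 7.33% at most. The labels do not say that the libraries come from separate mice, and p-values then reflect only the variation among these 9 libraries, which may be technical.

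In the table as deposited, 24 of the 38 genes rose in the knock-out and none fell (limma, adjusted p below 0.05). Of all 11032 genes tested, 37.0% rose and 14.8% fell by the same rule. In whole muscle, a change in the number of cells of a type and a change in RNA per cell cannot be told apart. The 24 were 4 of 9 complex III genes, 11 of 13 complex IV genes and 9 of 15 ATP synthase genes, while Cycs did not pass. The median log2 fold change of the 38 was 0.21, from -0.16 to 0.56, and the median of all tested genes was 0.12. The members are short: their median transcript is 697 bases against 2865 bases for all tested genes, and 36 of 38 lie among the 3609 shortest of the tested transcripts (at most 2136 bases). Of those 3609, 49.6% rose, 9.48% fell and the median was 0.23. In narrower steps of length, the median of the tested genes was 0.36 under 500 bases, 0.34 from 500 to 700 bases and 0.30 from 700 to 1000 bases. The members in these steps had medians of 0.36, 0.28 and 0.32.

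Each library was then centred on its median log ratio, which moved the median of all genes from 0.12 to 0 and the members' median from 0.21 to 0.08. After centring, 13 of 38 rose (Uqcrh, Uqcr11, Cox5b, Cox6a1, Cox6b1, Cox6c, Cox7c, Cox8a, Cox8b, Atp5g2, Atp5j2, Atp5k and Atp5o), against 25.1% of all genes and 34.9% of the shortest transcripts. The 4 that fell were Uqcrc1, Uqcrc2, Atp5a1 and Atp5j, against 24.9% of all genes and 16.5% of the shortest transcripts. The count of 4 became 2 without ko3, ko5, wt2 or wt3, each left out alone. With each library's trend over transcript length removed as well, 4 rose (24.9% of all genes) and 12 fell (24.1% of all genes), and the members' median was -0.08. Quantile normalization gave 5 higher (24.0% of all genes) and 13 lower (27.7%), and equal RPKM totals gave 13 higher (22.0%) and 6 lower (25.5%). Centring on the shortest transcripts alone, chosen after seeing the data, gave 7 higher (18.2%) and 10 lower (35.2%). The 4 genes higher without the length trend were Uqcr11, Cox8a, Atp5g2 and Atp5k, which rose under all 6 scalings compared. Uqcrc1, Uqcrc2, Cycs, Cox6a2, Atp5a1, Atp5b and Atp5j had a negative difference under all 6, without passing the test in the values as deposited.

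**Figure D1:**
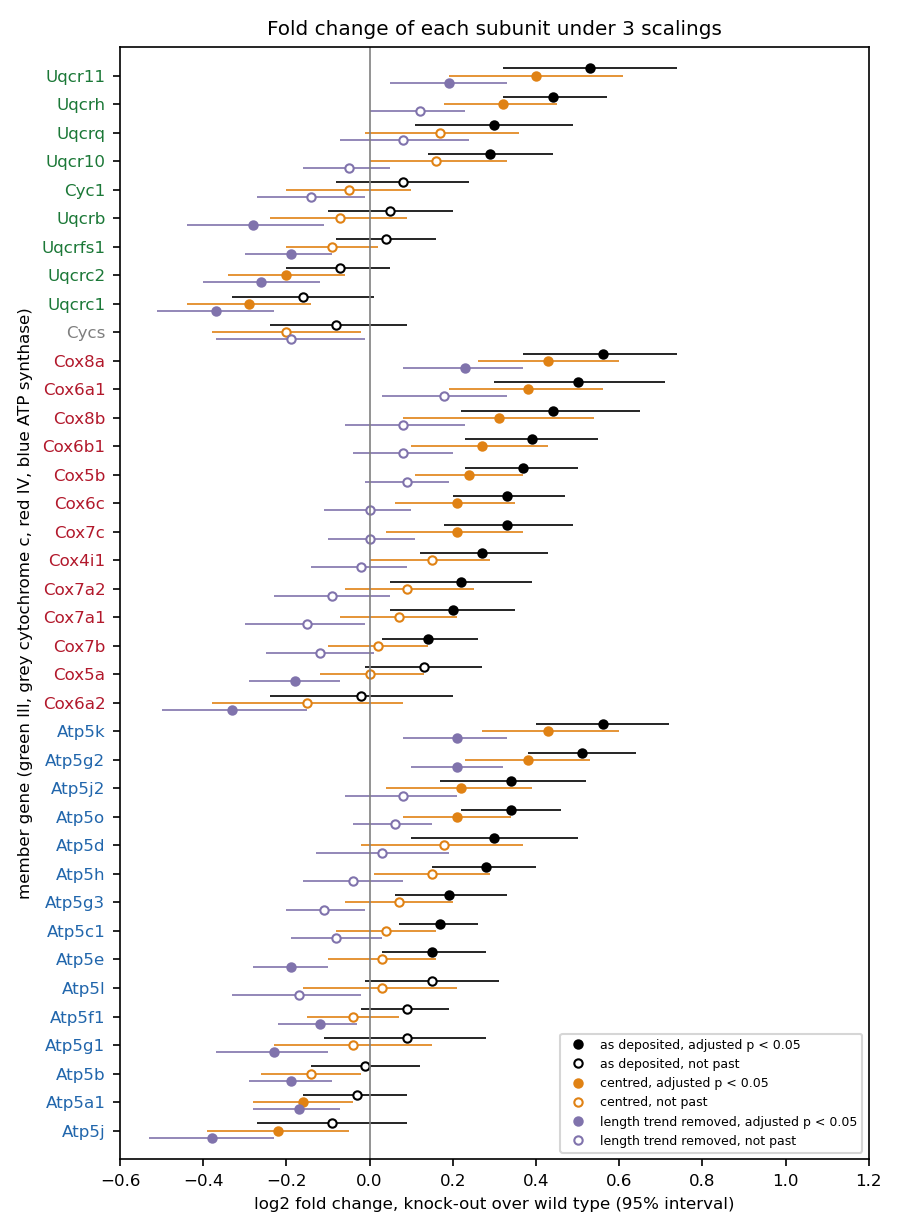
Log2 fold change of each of the 38 genes (knock-out less wild type, horizontal axis, limma estimate with 95% confidence interval), as deposited, centred and with the length trend removed, with genes grouped by complex. As deposited 24 intervals belong to genes that rose, after centring 13 rose and 4 fell, and without the length trend 4 rose and 12 fell.

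Across the 38 genes, log2 fold change and log2 transcript length gave Pearson's r of -0.63 and Spearman's rho of -0.56 as deposited, and -0.38 and -0.33 after the length trend was removed. The points share the same 9 libraries and are not independent, so these values are a description. In transcripts under 500 bases the median was 0.36 both for the 6 members and for the 96 tested genes of that length. Between 500 and 700 bases it was 0.28 for the 13 members and 0.34 for all 189 genes. Between 700 and 1000 bases it was 0.32 for the 8 members and 0.30 for all 479 genes, and between 1000 and 1500 bases 0.14 for the 3 members and 0.24 for all 1140 genes. Between 1500 and 2000 bases it was 0.03 for the 6 members and 0.20 for all 1322 genes. The members of 1500 to 2000 bases had a lower median than other genes of that length. The medians of shorter members lay on both sides of those of their length.

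**Figure D2:**
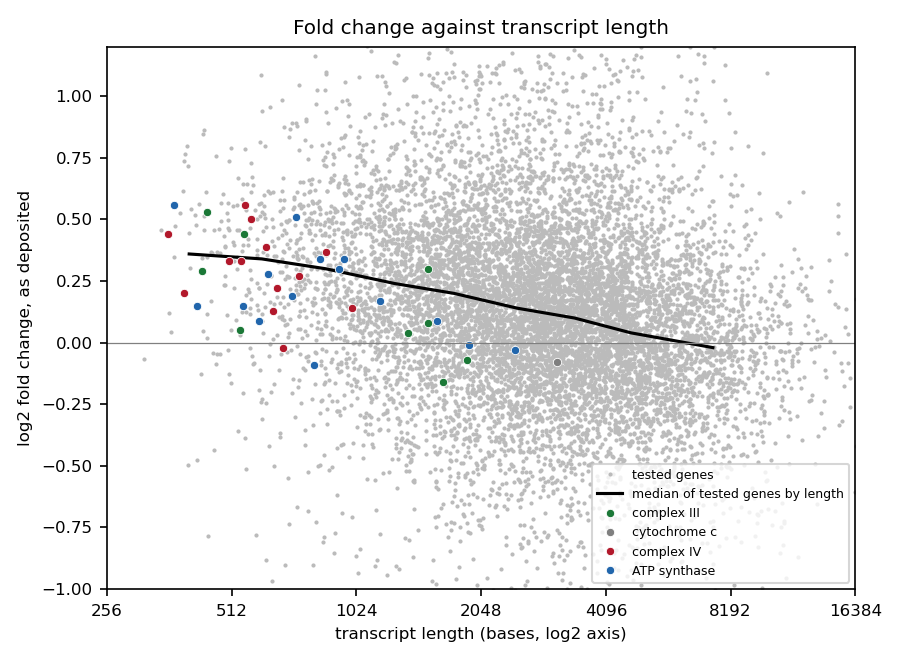
Log2 fold change as deposited (vertical axis) against transcript length in bases (horizontal log axis) for the members, coloured by complex, over all tested genes in grey, with the median of genes in length bins and genes beyond the axis left off. The binned median of all genes falls from 0.36 under 500 bases to -0.02 above 6000 bases, and members under 500 bases have the same median of 0.36.

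The groups did not overlap, with every knock-out value above every wild-type value, for 15 of the 38 genes, against 30.9% of all genes and 40.7% of the 3609 shortest transcripts. The 15 are 39.5% of the members, a share near that of the shortest transcripts. No member had every knock-out value below the wild type, against 11.4% of all genes and 7.07% of the shortest transcripts. Library wt3 was the highest wild-type library for 34 members, where 37.2% of all genes and 42.4% of the shortest transcripts had it highest. Library ko3 was the lowest knock-out library for 21 members, against 24.4% of all genes. With wt3 left aside, every knock-out value was above the other wild-type values for 24 of 38 members (35.1% of all genes and 45.8% of the shortest transcripts). For 23 members, wt3 was above at least 1 knock-out library.

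**Figure D3:**
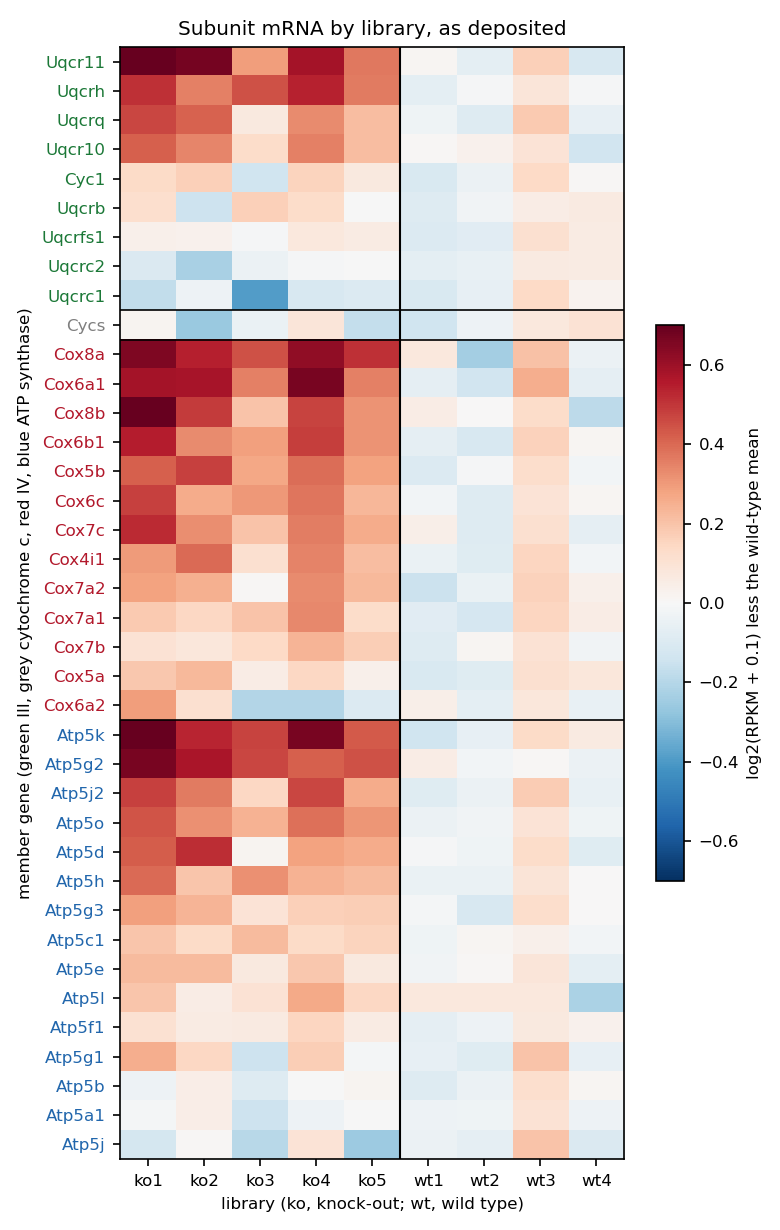
RPKM of the 38 genes in each of the 9 libraries on the log2(RPKM + 0.1) scale, as difference from the wild-type mean (colour) with genes in rows by complex and libraries in columns. Column wt3 is the highest wild-type column for 34 genes and ko3 the lowest knock-out column for 21.

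In complex III the small subunits rose as deposited while the large ones did not pass: 4 of 5 small subunits rose (median 0.30), against 0 of 4 among the core proteins, the Rieske protein and cytochrome c1 (median -0.02). This grouping by role was made after the values were seen, and the small subunits have transcripts of 434 to 1521 bases against 1363 to 1896. After centring, 2 of 5 small subunits rose and 2 of the 4 large ones fell. With the length trend removed, 1 small subunit rose and 1 fell, and 3 of the 4 large ones fell. As deposited 37.0% of all genes rose and 14.8% fell, and of the 3609 shortest transcripts 49.6% and 9.48% (median 0.23). Of all genes 25.1% rose and 24.9% fell after centring, and 24.9% and 24.1% with the length trend removed.

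Uqcr11, the smallest subunit of the complex, had 278, 265, 204, 249.6 and 215 RPKM in ko1 to ko5 and 168, 159, 187 and 154 RPKM in wt1 to wt4. All 5 knock-out values were above the wild type, with ko3 and ko5 nearest to wt3. It rose by 0.53 with an SE of 0.10 (limma adjusted p = 6.8e-04) on the log2 scale, by 0.40 after centring (adjusted p = 0.0045) and by 0.19 without the length trend (adjusted p = 0.031). Uqcrh, the acidic hinge protein beside cytochrome c1, had 315, 282, 300.1, 321 and 284 RPKM in ko1 to ko5 and 210.5, 219.8, 234 and 219 RPKM in wt1 to wt4. The groups were apart, and wt3 was again the highest wild-type library. The rise of 0.44 with an SE of 0.06 (limma adjusted p = 6.0e-05) was 0.32 after centring (adjusted p = 0.0016), and 0.12 without the length trend, where it did not pass (limma adjusted p = 0.088).

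Uqcrq, a subunit next to cytochrome b, had 294, 283, 223, 267 and 247 RPKM in ko1 to ko5 and 208, 199.5, 241 and 204 RPKM in wt1 to wt4. The groups overlapped through wt3, which was above ko3. Uqcrq rose by 0.30 with an SE of 0.09 (limma adjusted p = 0.012) as deposited and did not pass after centring (0.17, limma adjusted p = 0.11). Uqcr10 rose as deposited by 0.29 and Uqcrb, a subunit that binds ubiquinone, did not pass with 0.05. The value for Uqcrh is uncertain in one respect: it has a pseudogene named after it in the RefSeq annotation, as have Cycs, Cox5b, Cox7c, Atp5c1, Atp5k and Atp5l, and the sources used here do not say how shared reads were assigned.

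Uqcrc1, core protein 1 on the matrix side, had 215, 236, 185, 224 and 227 RPKM in ko1 to ko5 and 225, 233, 267 and 246 RPKM in wt1 to wt4. Library ko3 was the lowest and wt3 the highest, with ko1, ko4, ko5 and wt1 close together. Its log2 fold change of -0.16 with an SE of 0.08 (limma adjusted p = 0.097) did not pass as deposited, while after centring it fell by 0.29 (limma adjusted p = 0.0047). Uqcrc2, core protein 2, had 178, 163, 185, 189.7 and 190.3 RPKM in ko1 to ko5 and 182, 184, 199 and 198 RPKM in wt1 to wt4. The groups overlapped, with ko2 lowest. The log2 fold change of -0.07 with an SE of 0.06 (limma adjusted p = 0.31) did not pass as deposited, and after centring Uqcrc2 fell by 0.20 (limma adjusted p = 0.02). Uqcrfs1, the Rieske iron-sulfur protein, had 198, 197, 192, 203 and 201 RPKM in ko1 to ko5 and 181, 183, 209 and 201 RPKM in wt1 to wt4. The knock-out values lay inside the wild-type range, and the log2 fold change was 0.04 with an SE of 0.05 (limma adjusted p = 0.58). It was -0.09 after centring (limma adjusted p = 0.16). Cyc1, the cytochrome c1 heme protein, did not pass either, with 0.08 as deposited and -0.05 after centring.

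Cycs, the soluble electron carrier between complexes III and IV, had 108, 88.8, 103, 113 and 94.7 RPKM in ko1 to ko5 and 96.7, 104, 112 and 114 RPKM in wt1 to wt4. The groups overlapped over most of their range, with ko2 lowest and wt4 highest. The difference on the log2 scale was -0.08 with an SE of 0.08 (limma adjusted p = 0.43), and -0.20 after centring (limma adjusted p = 0.059), where the 95% interval ran from -0.38 to -0.02. It has the longest transcript of the 38 genes (3123 bases), in the range where 35.6% of 3609 genes rose and 14.4% fell as deposited. With each library scaled to 1 RPKM total, under quantile normalization and with centring on short transcripts, Cycs fell by the same test.

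In complex IV, 11 of 13 genes rose as deposited (median 0.33), 7 rose after centring (median 0.21) and none fell under either. As deposited 37.0% of all genes rose and 14.8% fell, and of the 3609 shortest transcripts 49.6% and 9.48% (median 0.23). After centring the shares were 25.1% and 24.9% of all genes, and 34.9% and 16.5% of the shortest transcripts (median 0.10). All complex IV transcripts, of 360 to 1001 bases, are among these shortest. With the length trend removed, 1 rose (Cox8a, against 24.9% of all genes) and 2 fell (Cox5a and Cox6a2, against 24.1%). The median was then -0.00. Of the 6 genes in isoform pairs, all 3 widespread isoforms rose as deposited (median 0.50) and 2 of the 3 muscle isoforms did (median 0.20). Of the other 7, 6 rose, from 0.14 for Cox7b to 0.39 for Cox6b1, the subunit at the outer face that helps join the complex into dimers.

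Cox8a, the widespread form of the smallest subunit, had 31.3, 29, 27.1, 30.6 and 28.3 RPKM in ko1 to ko5 and 20.9, 16.8, 22.9 and 19.3 RPKM in wt1 to wt4. The groups were well apart, with wt3 the nearest wild-type library. It rose by 0.56 with an SE of 0.08 (limma adjusted p = 1.9e-04), by 0.43 after centring (adjusted p = 9.4e-04) and by 0.23 without the length trend (adjusted p = 0.014). Cox8b, the muscle form, had 716, 617, 503, 609.7 and 546 RPKM in ko1 to ko5 and 454, 439, 480.1 and 387 RPKM in wt1 to wt4. The groups did not overlap, with ko3 and wt3 nearest to each other. Cox8b rose by 0.44 with an SE of 0.10 (limma adjusted p = 0.003), by 0.31 after centring (adjusted p = 0.028), and was 0.08 without the length trend, where it did not pass (limma adjusted p = 0.32).

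Cox6a1, the widespread form of a subunit that takes part in the regulation of the complex by ATP and ADP, was the lowest of the 38 genes, with 21.6, 21.5, 18.4, 22.9 and 18.4 RPKM in ko1 to ko5 and 13.8, 13.1, 17.2 and 13.8 RPKM in wt1 to wt4. All knock-out values were above the wild type, with ko3 and ko5 just over wt3. Cox6a1 rose by 0.50 with an SE of 0.09 (limma adjusted p = 8.3e-04), and by 0.38 after centring (adjusted p = 0.0034). Cox6a2, its muscle counterpart, had 562, 497, 399, 398 and 430.0 RPKM in ko1 to ko5 and 472, 438, 486 and 444 RPKM in wt1 to wt4. The knock-out values spread wider than the wild type on both sides, from ko4 to ko1. Its log2 fold change of -0.02 with an SE of 0.10 (limma adjusted p = 0.87) did not pass, and its sign turned when ko3, ko4 or wt3 was left out (0.02, 0.03 and 0.01).

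Cox7a1, the muscle form of subunit 7a, had 364, 354, 368, 405 and 350.5 RPKM in ko1 to ko5 and 303, 295, 355 and 332 RPKM in wt1 to wt4. Libraries wt3, ko2 and ko5 were nearly level, so the groups overlapped slightly. It rose by 0.20 with an SE of 0.07 (limma adjusted p = 0.028) as deposited but not after centring (0.07), and the call was lost without ko4, wt1 or wt2 (adjusted p up to 0.092). Cox7a2, the widespread form, had 91.4, 89.4, 75.8, 94.7 and 88.2 RPKM in ko1 to ko5 and 67.8, 73, 84.2 and 77 RPKM in wt1 to wt4. Library ko3 lay among the wild-type values. It rose by 0.22 with an SE of 0.08 (limma adjusted p = 0.032) as deposited, and after centring the 0.09 did not pass (limma adjusted p = 0.31). Its call as deposited was lost without any 1 of ko1, ko2, ko4, ko5, wt1 and wt2 (adjusted p up to 0.099).

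Among the catalytic core's nuclear partners, Cox4i1, the largest nuclear subunit and a site of nucleotide binding, rose as deposited by 0.27 and did not pass after centring. Cox5b, the zinc-binding subunit, rose by 0.37, and by 0.24 after centring (limma adjusted p = 0.0056). Cox5a, its partner on the matrix side, had 313, 322, 285, 304 and 282 RPKM in ko1 to ko5 and 255, 259, 297 and 290.0 RPKM in wt1 to wt4. The groups overlapped, with wt3 and wt4 among the knock-out values, and the log2 fold change of 0.13 with an SE of 0.06 (limma adjusted p = 0.11) did not pass. Cox7b, a small membrane subunit, had 119, 117, 122, 131 and 125 RPKM in ko1 to ko5 and 104, 112, 119 and 109 RPKM in wt1 to wt4. Library wt3 overlapped with ko1 and ko2. It rose by 0.14 with an SE of 0.05 (limma adjusted p = 0.041), a call lost without any 1 of ko3, ko4, ko5, wt1, wt2 and wt4 (adjusted p up to 0.13). Cox6c and Cox7c, 2 further small subunits of the membrane part, each rose by 0.33, and by 0.21 after centring.

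The difference between 2 isoforms of a subunit was taken within each library, so that library scaling drops out, and compared by an exact two-sided permutation test of the 9 libraries with 126 arrangements, adjusted over 6 pairs. The RPKM ratio of Cox6a2 to Cox6a1 was 26.1, 23.1, 21.7, 17.4 and 23.4 in ko1 to ko5 and 34.2, 33.5, 28.2 and 32.1 in wt1 to wt4. Every knock-out library was below every wild-type library, with ko4 lowest. The mean ratio was 22.3 ± 3.19 (SD, n = 5) against 32.0 ± 2.69 (SD, n = 4), a log2 difference of -0.52 (exact permutation p = 0.016, adjusted p = 0.032). The muscle form thus stood at 17.4 times or more of the widespread form per length in all libraries.

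The other complex IV pairs did not pass. The ratio of Cox8b to Cox8a was 22.9, 21.3, 18.6, 19.9 and 19.3 in ko1 to ko5 and 21.7, 26.1, 20.9 and 20.1 in wt1 to wt4. The ranges overlapped, and the log2 difference between groups was -0.12 (exact permutation p = 0.28, adjusted p = 0.33). The ratio of Cox7a1 to Cox7a2 was 3.98, 3.96, 4.85, 4.28 and 3.97 in ko1 to ko5 and 4.47, 4.04, 4.22 and 4.31 in wt1 to wt4. The groups lay over each other, apart from ko3 at the top, with a log2 difference of -0.02 (exact permutation p = 0.78, adjusted p = 0.78).

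**Figure D4:**
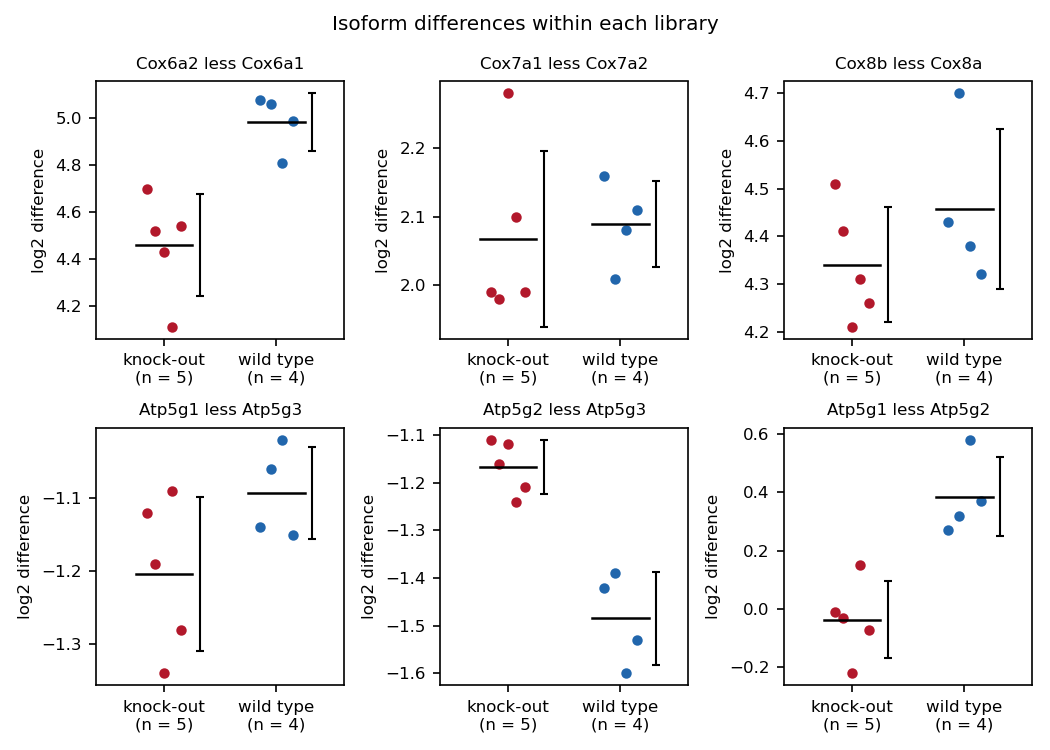
Log2 difference in RPKM between 2 isoforms of a subunit (vertical axis) in each library, for 6 pairs, with knock-out and wild-type libraries as points, the group mean as a line and the SD as a whisker. The groups are apart for Cox6a2 less Cox6a1 (means 4.46 and 4.99), Atp5g2 less Atp5g3 (-1.17 and -1.48) and Atp5g1 less Atp5g2 (-0.04 and 0.39), and overlap for the other 3.

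In the ATP synthase, 9 of 15 genes rose as deposited (median 0.17) and none fell. Of all genes 37.0% rose and 14.8% fell, and of the 3609 shortest transcripts 49.6% rose and 9.48% fell (median 0.23). After centring 4 rose (Atp5g2, Atp5j2, Atp5k and Atp5o), 2 fell (Atp5a1 and Atp5j) and the median was 0.04. The shares of all genes were then 25.1% and 24.9%, and those of the shortest transcripts 34.9% and 16.5%. With the length trend removed, 2 rose (Atp5g2 and Atp5k) and 6 fell (Atp5a1, Atp5b, Atp5e, Atp5f1, Atp5g1 and Atp5j), and the median was -0.11. Under that scaling 24.9% of all genes rose and 24.1% fell. By role, a grouping made after the values were seen, 3 of 5 genes of the catalytic head and its central stalk rose as deposited. The same holds for 2 of 3 c subunit genes, 2 of 4 genes of the outer stalk and 2 of 3 small membrane subunits. After centring, none of the 5 head and central stalk genes rose and 1 fell. In the outer stalk 1 then rose and 1 fell, and 1 c subunit gene and 2 small membrane subunits rose. With the length trend removed, 3 head and central stalk genes and 2 outer stalk genes fell, and none of either rose. Of the c subunit genes 1 rose and 1 fell, and 1 small membrane subunit rose.

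The alpha and beta subunits form the ring that makes ATP, and their genes were among the highest of the 38. Atp5b, the beta subunit, had 851, 901, 819, 869 and 884 RPKM in ko1 to ko5 and 818, 846, 946 and 880.2 RPKM in wt1 to wt4. The groups overlapped fully, with wt1 and ko3 lowest and wt3 highest, and the log2 fold change was -0.01 with an SE of 0.06 (limma adjusted p = 0.88). Its sign turned without ko3 or wt3 (0.01 and 0.03), and after centring it was -0.14 (limma adjusted p = 0.051). Atp5a1, the alpha subunit, had 621, 648, 567, 611 and 625 RPKM in ko1 to ko5 and 611, 614, 673 and 613 RPKM in wt1 to wt4. Libraries wt1, wt2 and wt4 were nearly equal and wt3 was above all others. The log2 fold change was -0.03 with an SE of 0.06 (limma adjusted p = 0.67), and Atp5a1 fell by 0.16 after centring (limma adjusted p = 0.035). Atp5c1, Atp5d and Atp5e, the gamma, delta and epsilon subunits of the central stalk, rose as deposited by 0.17, 0.30 and 0.15. None of these 3 passed after centring. The call of Atp5e was lost without any 1 of ko1, ko2, ko4, wt1, wt2 and wt4 (adjusted p up to 0.11).

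In the outer stalk, which holds the head still, Atp5j (coupling factor 6) had 115, 126, 109.6, 134 and 105 RPKM in ko1 to ko5 and 122, 120.2, 144 and 117 RPKM in wt1 to wt4. The groups overlapped, with wt3 highest and ko5 lowest. Its log2 fold change of -0.09 with an SE of 0.08 (limma adjusted p = 0.37) did not pass as deposited, while after centring Atp5j fell by 0.22 (limma adjusted p = 0.032). Atp5o, the subunit that ties the stalk to the head and gives oligomycin sensitivity, rose by 0.34, and by 0.21 after centring (limma adjusted p = 0.012). Atp5h (subunit d) rose by 0.28 as deposited, and Atp5f1 (subunit b) did not pass with 0.09.

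Atp5k, subunit e, which helps join the synthase into dimers, had 216, 193, 185, 211 and 179 RPKM in ko1 to ko5 and 121, 128, 146 and 139 RPKM in wt1 to wt4. All knock-out values were above the wild type, the lowest being ko5. It rose by 0.56 with an SE of 0.07 (limma adjusted p = 6.7e-05), by 0.43 after centring (adjusted p = 5.2e-04) and by 0.21 without the length trend (adjusted p = 0.011). Atp5j2, subunit f, had 324, 299, 257, 321 and 278 RPKM in ko1 to ko5 and 219, 226, 263 and 224 RPKM in wt1 to wt4. The groups overlapped through ko3 and wt3. Atp5j2 rose by 0.34 with an SE of 0.08 (limma adjusted p = 0.0038), and by 0.22 after centring (adjusted p = 0.04). Atp5l, subunit g, did not pass: it was 0.15 as deposited (limma adjusted p = 0.098), with wt4 below all other libraries.

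The c subunits form the ring that turns as protons pass. Atp5g2 had 239.8, 225, 209, 202 and 206 RPKM in ko1 to ko5 and 157, 149, 152 and 147 RPKM in wt1 to wt4. The lowest knock-out value was well above the highest wild-type value, and wt3 did not stand out here. Atp5g2 rose by 0.51 with an SE of 0.06 (limma adjusted p = 2.6e-05), by 0.38 after centring (adjusted p = 7.6e-04) and by 0.21 without the length trend (adjusted p = 0.0044). Atp5g1 had 237, 219.6, 179.7, 224 and 197 RPKM in ko1 to ko5 and 191, 187, 228 and 191 RPKM in wt1 to wt4. The groups overlapped, with wt3 among the highest values and ko3 lowest, and the log2 fold change of 0.09 with an SE of 0.09 (limma adjusted p = 0.44) did not pass. Atp5g3, the highest of the 3, had 518, 501, 454, 477 and 478 RPKM in ko1 to ko5 and 421, 392, 462 and 425 RPKM in wt1 to wt4. Only ko3 lay below wt3. It rose by 0.19 with an SE of 0.06 (limma adjusted p = 0.019) as deposited, a call lost without wt2 (0.16, limma adjusted p = 0.069), and was 0.07 after centring.

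Within libraries, the ratio of Atp5g2 to Atp5g3 was 0.463, 0.449, 0.46, 0.424 and 0.431 in ko1 to ko5 and 0.374, 0.381, 0.33 and 0.347 in wt1 to wt4. Every knock-out ratio was above every wild-type ratio, with means of 0.445 ± 0.0175 (SD, n = 5) and 0.358 ± 0.0240 (SD, n = 4). The log2 difference between groups was 0.32 (exact permutation p = 0.0079, the smallest that 126 arrangements allow, adjusted p = 0.024). The ratio of Atp5g1 to Atp5g2 was 0.99, 0.976, 0.86, 1.11 and 0.955 in ko1 to ko5 and 1.21, 1.25, 1.5 and 1.29 in wt1 to wt4. Only ko4 was above 1 in the knock-out, and every wild-type ratio was above that of ko4. The log2 difference was -0.43 (exact permutation p = 0.0079, adjusted p = 0.024), while Atp5g1 to Atp5g3 did not pass (-0.11, exact permutation p = 0.13, adjusted p = 0.19). The differences among the c subunit genes are not independent: each follows from the others, and Atp5g2 is in both that passed. The means of the 3 differences that passed, with that of Cox6a2 less Cox6a1, kept their sign without each library. With 4 knock-out libraries the smallest possible exact p is 0.029, and the adjusted p was 0.057 without any of ko1 to ko5, for Cox6a2 to Cox6a1 as well. The 3 genes' transcripts are 596, 731 and 714 bases long (Atp5g1, Atp5g2, Atp5g3), so these ratios compare transcripts of similar length.

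The promoters shown are those of Uqcr11, Cox8a, Atp5g2 and Atp5k, the 4 members that rose under all 6 scalings, and of the other two c subunit genes, Atp5g1 and Atp5g3, which did not pass after centring. The choice was made after their values were seen. The sequences are the 250 bases before the transcript start, from RefSeq on GRCm38.p6, all 6 on the minus strand: chr10:80406822-80407071 for Uqcr11, chr19:7217617-7217866 for Cox8a, chr15:102671048-102671297 for Atp5g2, chr5:108434400-108434649 for Atp5k, chr11:96075632-96075881 for Atp5g1 and chr2:73911327-73911576 for Atp5g3. Capitals mark GCGCA followed by any base and GCGC, on either strand, a binding motif of NRF1, a transcription factor with sites in many respiratory chain promoters, and CCGGAAG, on either strand, a motif of the ETS family of factors.
Uqcr11: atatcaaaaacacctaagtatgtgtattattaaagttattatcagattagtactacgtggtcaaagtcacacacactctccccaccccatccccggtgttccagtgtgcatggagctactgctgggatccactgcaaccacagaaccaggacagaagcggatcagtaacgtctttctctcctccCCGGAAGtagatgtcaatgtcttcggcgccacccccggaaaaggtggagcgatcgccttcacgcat
Cox8a: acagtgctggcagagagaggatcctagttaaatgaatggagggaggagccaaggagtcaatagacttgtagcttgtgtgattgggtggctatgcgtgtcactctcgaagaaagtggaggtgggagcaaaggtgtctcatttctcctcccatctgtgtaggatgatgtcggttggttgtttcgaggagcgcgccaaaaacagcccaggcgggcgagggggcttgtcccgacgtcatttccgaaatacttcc
Atp5g2: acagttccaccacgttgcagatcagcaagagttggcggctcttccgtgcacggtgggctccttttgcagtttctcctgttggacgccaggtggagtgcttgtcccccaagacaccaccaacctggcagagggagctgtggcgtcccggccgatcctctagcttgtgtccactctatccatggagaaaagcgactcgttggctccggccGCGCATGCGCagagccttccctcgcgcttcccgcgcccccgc
Atp5k: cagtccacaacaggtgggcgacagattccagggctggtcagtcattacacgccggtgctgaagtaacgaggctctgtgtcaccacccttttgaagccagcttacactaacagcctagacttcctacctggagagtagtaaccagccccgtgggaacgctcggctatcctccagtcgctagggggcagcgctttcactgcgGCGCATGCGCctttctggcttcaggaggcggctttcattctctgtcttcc
Atp5g1: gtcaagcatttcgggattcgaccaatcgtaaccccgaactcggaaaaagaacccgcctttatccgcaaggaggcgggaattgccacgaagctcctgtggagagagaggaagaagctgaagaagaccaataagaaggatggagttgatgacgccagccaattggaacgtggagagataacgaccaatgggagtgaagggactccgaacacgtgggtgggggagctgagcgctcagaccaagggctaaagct
Atp5g3: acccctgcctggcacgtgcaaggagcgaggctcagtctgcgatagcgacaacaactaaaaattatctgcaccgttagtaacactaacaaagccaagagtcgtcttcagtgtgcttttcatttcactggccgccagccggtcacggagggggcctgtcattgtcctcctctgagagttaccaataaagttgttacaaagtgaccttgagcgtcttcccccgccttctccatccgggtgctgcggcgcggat

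The NRF1 motif starts 42 bases before the start of Atp5g2 and 50 before that of Atp5k. The ETS motif starts 66 bases before the start of Uqcr11. No match to either was found in the windows of Cox8a, Atp5g1 and Atp5g3. A RefSeq promoter was matched for 29 of the 38 genes, and 5 of them (17.2%) held the NRF1 motif: Cox6a1, Atp5c1, Atp5g2, Atp5h and Atp5k. Of all 27025 promoters of the same length, which include those of genes not tested here, 4.23% held it. All 5 are among the 21 of the 29 that rose as deposited, and none among the 8 that did not pass. After centring, 3 of these 5 (Cox6a1, Atp5g2 and Atp5k) were among the 12 of the 29 that rose, and 2 (Atp5c1 and Atp5h) did not pass. Without the length trend, 2 of the 5 (Atp5g2 and Atp5k) were among the 4 that rose, 3 did not pass, and none was among the 7 that fell. Under quantile normalization Atp5c1 fell. The count of motif genes that rose therefore depends on the scaling. The ETS motif was in 8 of 29 (27.6%: Uqcrh, Uqcr11, Cox6a1, Cox6b1, Atp5e, Atp5h, Atp5j and Atp5l) against 7.83% of all promoters, and in 6 of the 21 and 2 of the 8 as deposited. After centring 4 of these 8 rose and 1 (Atp5j) fell, and without the length trend 1 (Uqcr11) rose and 2 (Atp5e and Atp5j) fell. No match to the first motif overlapped one to the second in these genes. The matches are a description of the letters, not of binding.

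Summed over its 9 genes, complex III stood at 2241, 2139, 1963, 2207 and 2058 RPKM in ko1 to ko5 and 1795, 1817, 2025 and 1855 RPKM in wt1 to wt4. Complex IV summed to 3943, 3691, 3279, 3667 and 3392 RPKM in ko1 to ko5 and 2937, 2854, 3262 and 2936 RPKM in wt1 to wt4. The ATP synthase summed to 5137, 5047, 4626, 5016 and 4825 RPKM in ko1 to ko5 and 4321, 4344, 4784 and 4341 RPKM in wt1 to wt4. The groups overlapped in complex III and the ATP synthase through ko3 and wt3, and in complex IV ko3 lay just above wt3.

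The knock-out to wild-type ratio of the means was 1.13 for complex III, 1.2 for complex IV, 1.11 for the ATP synthase and 0.950 for Cycs. As a share of each library's RPKM total, the 38 genes took 2.83% to 3.06% in the knock-out against 2.78% to 3.12% in the wild type, so the ranges of the shares lay over each other. By complex, the share ranged from 0.930% to 1.05% against 0.872% to 0.999% for complex IV, and from 1.31% to 1.39% against 1.32% to 1.47% for the ATP synthase.

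**Figure D5:**
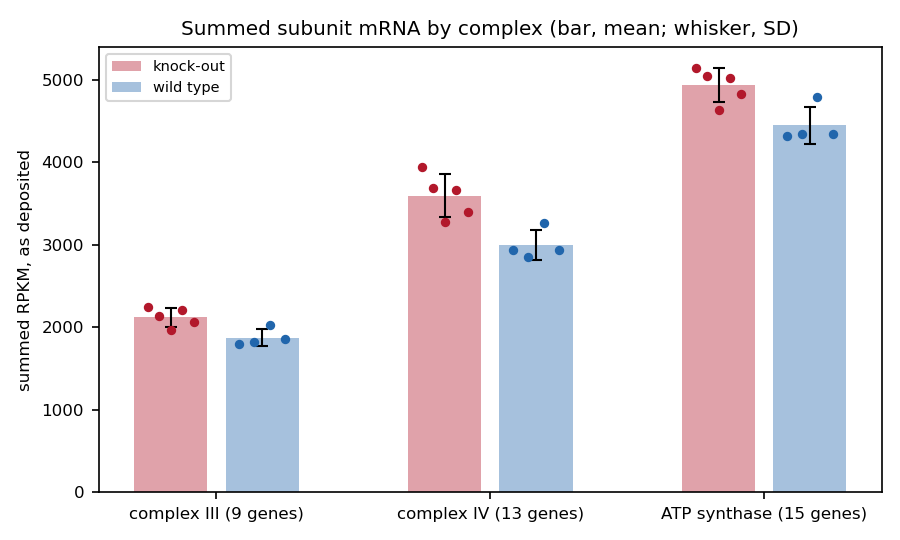
Summed RPKM of complex III, complex IV and the ATP synthase (vertical axis) in each library, with libraries as points, bars for the group means and whiskers for the SD. Complex IV runs from 3279 to 3943 in the knock-out against 2854 to 3262 in the wild type, and the groups overlap in the other 2 sums.

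Other genes of the pathway are described from lists drawn up with earlier results known. Of 9 tested other subunits and isoforms, 2 rose and 1 fell as deposited, against 37.0% and 14.8% of all genes. The largest change of these 9 was in Atpif1, which encodes the inhibitor that blocks the synthase from running backwards, with 37.1, 32.1, 30.2, 30.9 and 29.4 RPKM in ko1 to ko5 and 12.5, 11.6, 13.4 and 12.4 RPKM in wt1 to wt4. The groups were far apart, and the log2 fold change of 1.34 with an SE of 0.07 (limma adjusted p = 6.0e-08) was 1.22 after centring (adjusted p = 2.7e-07) and 1.02 without the length trend (adjusted p = 6.9e-08). Cox7a2l, a factor that joins complexes III and IV into supercomplexes, had 101, 93.5, 94.9, 94.7 and 94.6 RPKM in ko1 to ko5 and 78.9, 81.8, 80 and 77.7 RPKM in wt1 to wt4. It rose by 0.26 with an SE of 0.04 (limma adjusted p = 3.6e-04) as deposited, and after centring the 0.14 did not pass (limma adjusted p = 0.061).

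Of 30 assembly factors, 11 rose and 6 fell as deposited, against 37.0% and 14.8% of all genes. After centring 7 rose and 11 fell, against 25.1% and 24.9% of all genes. Lyrm7, which handles the Rieske protein during complex III assembly, had 1.39, 1.6, 1.5, 1.36 and 1.34 RPKM in ko1 to ko5 and 2.99, 3.17, 3.64 and 3.22 RPKM in wt1 to wt4. All knock-out values were below all wild-type values. It fell by 1.12 on the log2 scale (limma adjusted p = 1.0e-06), and by 1.25 after centring. The assembly factor listed as 2900010M23Rik, 113 ± 6.55 RPKM (SD, n = 5) in the knock-out and 80.2 ± 2.39 (SD, n = 4) in the wild type, rose by 0.50 with an SE of 0.05 (limma adjusted p = 1.5e-05) and by 0.37 after centring. The genes encoded in mitochondrial DNA, among them the catalytic subunits of complex IV, were looked for by name. None was found among the 18062 genes, so they were not analysed.

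Complex I, the entry point for NADH, had 17 of 36 genes higher and 1 lower as deposited (median 0.16). Of all genes 37.0% rose and 14.8% fell, and of the 3609 shortest transcripts 49.6% rose and 9.48% fell. After centring 11 were higher and 5 lower, against 25.1% and 24.9% of all genes. With the length trend removed, 4 rose and 12 fell (24.9% and 24.1% of all genes), the same counts as for the 38 genes above. Ndufa2, at 235 ± 26.9 RPKM (SD, n = 5) in the knock-out and 147 ± 6.16 (SD, n = 4) in the wild type, rose by 0.67 with an SE of 0.08 (limma adjusted p = 3.2e-05). Ndufb3, at 92.5 ± 7.44 RPKM (SD, n = 5) in the knock-out and 60.9 ± 4.65 (SD, n = 4) in the wild type, rose by 0.60 with an SE of 0.07 (limma adjusted p = 3.0e-05). Both also rose after centring and without the length trend. In complex II, Sdha, the flavoprotein that oxidises succinate, ran 169 to 185 RPKM in the knock-out against 184 to 214 in the wild type. It fell by 0.16 (limma adjusted p = 0.033) as deposited, a call lost without ko1, ko3, wt2, wt3 or wt4 (adjusted p up to 0.10). Sdhd, a membrane anchor, rose by 0.17 with an SE of 0.06 (limma adjusted p = 0.031), a call lost without ko1, ko3, ko4 or wt4 (adjusted p up to 0.096). Sdha fell under all 6 scalings, while Sdhd passed only as deposited.

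Of 7 genes for ATP export and phosphate import, 2 rose and 1 fell as deposited, against 37.0% and 14.8% of all genes. Vdac3, a channel of the outer membrane, had 132, 123, 128, 119 and 130.4 RPKM in ko1 to ko5 and 156, 167, 177 and 165 RPKM in wt1 to wt4. All knock-out values were below the wild type, and it fell by 0.39 (limma adjusted p = 8.0e-05) and by 0.52 after centring. Slc25a5, the widespread ADP/ATP carrier of the inner membrane, had 25.2 ± 2.85 RPKM (SD, n = 5) in the knock-out and 18 ± 1.15 (SD, n = 4) in the wild type, and rose by 0.48 with an SE of 0.08 (limma adjusted p = 4.0e-04) and by 0.35 after centring.

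Of 14 regulators of mitochondrial genes, 1 rose and 3 fell as deposited, against 37.0% and 14.8% of all genes. After centring none rose and 6 fell, against 25.1% and 24.9% of all genes. Tfam, which packs and transcribes mitochondrial DNA, had 6.81, 7.8, 7.49, 6.99 and 6.53 RPKM in ko1 to ko5 and 8.53, 8.72, 9.07 and 10 RPKM in wt1 to wt4. Every knock-out value was below every wild-type value, and it fell by 0.35 (limma adjusted p = 0.0016). Ppargc1a, the PGC-1alpha coactivator of respiratory genes, had 4.23, 4.13, 5.3, 4.26 and 5.46 RPKM in ko1 to ko5 and 6.35, 6.06, 6.11 and 5.71 RPKM in wt1 to wt4. The groups were again apart, with ko3 and ko5 nearest the wild type, and it fell by 0.38 (limma adjusted p = 0.0055). Both fell after centring and without the length trend too.

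Markers of fibre and cell types were read in the same libraries. By the same test 37.0% of all genes rose and 14.8% fell as deposited, and 25.1% rose and 24.9% fell after centring. Fast fibre genes, which define white muscle, were abundant in all libraries. The 10 markers summed to 78418 to 90639.6 RPKM in the knock-out against 77434 to 83985 in the wild type. As deposited 1 was higher (Mylpf) and 1 lower (Casq1). Casq1 fell by 0.41 (limma adjusted p = 3.4e-04), with every knock-out value below every wild-type value, and fell under all 6 scalings. After centring Myh4 also fell, by 0.34 (limma adjusted p = 0.02), and none rose. The call of Mylpf was lost without any 1 of ko1, ko3, ko4 and the wild-type libraries (adjusted p up to 0.085). The 10 slow fibre markers summed to 233 to 526 against 78.9 to 237, and all 10 rose as deposited (median 1.21). Of 14 macrophage markers tested, of 16 listed, 13 rose, with sums of 85.2 to 144 against 36.0 to 45.7. Of 12 endothelial markers 7 fell (sums 36.1 to 64.3 against 50 to 82.7), of 8 adipocyte markers 3 fell (189 to 301 against 199.6 to 332) and all 3 tested red cell markers fell (61.7 to 100.5 against 124 to 135). After centring 9 slow fibre and 13 macrophage markers rose, and 10 endothelial, 6 adipocyte and 3 red cell markers fell. Every knock-out value was above every wild-type value for 3 of the slow fibre markers, against 30.9% of all genes.

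Of 5 markers of brown fat and heart, the 2 tested rose (Myh6 and Actc1), and the others were too low to test. The 5 summed to 107 to 222 RPKM for ko1 to ko5 against 28.4 to 113 for wt1 to wt4. Most of this was Actc1, with 96.8 to 211 against 24.4 to 109.7. Within each group, the libraries ranked in the same order for Myh6 as for Myh7, a slow fibre marker. Untested Cidea averaged 0.376 RPKM for ko1 to ko5 against 0.428 for wt1 to wt4, and Nppa 0.0688 against 0.102, with overlapping ranges. Ucp1, which defines brown fat, was 0 for ko1 to ko5 and at most 0.0510 RPKM for wt1 to wt4. The part of these cell types, of library depth and of age in the differences of the 38 genes was not tested, and the sources used here name no batches.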

How the data were processed

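The authors deposited 1 table of RPKM values with a line per RefSeq transcript and a column per library. Trizol extraction and the Illumina TruSeq kit are given per the labels' protocols. TopHat 1.3.2, Bowtie 0.12.7.0, Partek 6.6 and the build mm9 are named per the submitters' processing notes. The sources used here do not state their roles, the counting of shared reads or the use of strand.

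The 23665 lines were summed per symbol to 18062 genes (3517 of several lines). Of 37 symbols turned into dates, 36 were restored by accession. Every value column was used. The wild-type columns show the genotype and not the age, so they form 1 group of 4 against 5 knock-out libraries. Genes averaging 0.5 RPKM or more (11032, all 38 members among them) were tested on log2(RPKM + 0.1), so log2 fold changes are on that scale. The test was limma 3.58.1 in R 4.3.3 (eBayes with trend, two-sided), with Benjamini-Hochberg adjustment over all genes tested and a threshold of 0.05. Centring subtracts from each library the median over tested genes of its log ratio to the mean of all libraries. The length trend was a lowess fit (span 0.3) of that log ratio on log transcript length. Lengths come from GRCm38 transcripts matched by accession (22640 lines), which approximate the mm9 models.

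Depth was read from the low values: 52.9% to 58.6% of RPKM times length lay within 0.1 of a whole number of reads, where chance gives 20%. Isoform pairs were tested by exact permutation (Python 3.11.15, scipy 1.17.1). Values are given in every library for the isoform pairs. In each complex they are also given for the 3 members with the largest and the 3 with the smallest log2 fold change. From each other list of the pathway with tested genes, the 2 genes with the smallest p are named. Members, lists and tests were chosen with earlier results of these data known. Alternatives covered the pseudocount, filter, transcript lines, eBayes trend, scaling and libraries left out. Centring on the 3609 shortest transcripts was chosen after seeing the data.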

Additional observations from a re-analysis of the deposited data

Results flagged for a closer look

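In 5 of 88 groups of libraries examined, 1 library stood apart from the rest of its group, and chance alone sets apart about 1 group in 20. In 4 of the 5 it was wt3, the deepest library, at the top of the wild type. Atp5a1 was 673 RPKM in wt3 against 611 to 614 in the other wild-type libraries. Atp5g1 was 228 RPKM in wt3 against 187 to 191. Atp5j2 was 263 RPKM in wt3 against 219 to 226. Atp5o was 226 RPKM in wt3 against 206 to 208. In the remaining group, Atp5l was 242 RPKM in wt4 against 296 to 297 in the other wild-type libraries.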

How the results depend on the processing

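No paired analysis was possible because the wild-type columns carry the numbers 1 to 4, which do not match the replicate numbers the labels give within each age. Other pseudocounts, filters, transcript lines and the eBayes trend changed no direction among the 38 genes and lost at most 3 calls per setting. The causes of the changes below were not tested.

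As deposited 24 members were higher and 0 lower, and the counts became 4 and 12 with the length trend removed, 7 and 10 with centring on the shortest transcripts, 5 and 13 under quantile normalization, 13 and 6 with equal RPKM totals and 13 and 4 after centring. Without wt1 and wt2, 15 were higher. Of 100 tested genes in the other lists of the pathway, 34 were higher and 13 lower as deposited (37.0% and 14.8% of all genes). In the same order of settings the counts were 10 and 42, 12 and 49, 14 and 40, 18 and 34, and 20 and 29, and without wt3 and wt4 8 were lower. Of all genes, 24.9% were higher and 24.1% lower with the length trend removed, and 18.2% and 35.2% with centring on the shortest transcripts. The shares were 24.0% and 27.7% under quantile normalization, 22.0% and 25.5% with equal RPKM totals, and 25.1% and 24.9% after centring. After centring, 8 members were higher without wt3 and wt4. The 4 lower after centring became 2 with a pseudocount of 1, 1 with no filter, 1 without wt1 and wt2, 1 without wt3 and wt4, and 2 to 6 without single libraries.

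The members' median of 0.21 became -0.08 with the length trend removed, -0.03 with centring on the shortest transcripts, -0.01 under quantile normalization, 0.05 with equal RPKM totals, 0.08 after centring and 0.28 without wt3 and wt4. Less the median of all genes it was -0.08 with the length trend removed. The summed ratio of complex III became 1.04 after centring, 0.917 under quantile normalization and 1.01 with equal totals. That of complex IV became 1.1, 1.01 and 1.07 in the same order, and that of the ATP synthase 1.02, 0.938 and 0.993. The ratio of Cycs was 0.819 under quantile normalization and 0.851 with equal totals.

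With the length trend removed, the sign turned for Uqcrfs1 (-0.19), Uqcrb (-0.28), Uqcr10 (-0.05), Cyc1 (-0.14), Cox4i1 (-0.02), Cox5a (-0.18), Cox6c (-0.00), Cox7a1 (-0.15), Cox7a2 (-0.09), Cox7b (-0.12), Atp5c1 (-0.08), Atp5e (-0.19), Atp5f1 (-0.12), Atp5g1 (-0.23), Atp5g3 (-0.11), Atp5h (-0.04), Atp5l (-0.17), Sdhd (-0.07) and Mylpf (-0.03). With centring on the shortest transcripts, the sign turned for Uqcrfs1 (-0.20), Uqcrb (-0.18), Cyc1 (-0.16), Cox5a (-0.10), Cox7a1 (-0.04), Cox7a2 (-0.02), Cox7b (-0.09), Atp5c1 (-0.07), Atp5e (-0.08), Atp5f1 (-0.15), Atp5g1 (-0.15), Atp5g3 (-0.04), Atp5l (-0.08) and Sdhd (-0.06). Under quantile normalization, the sign turned for Uqcrfs1 (-0.26), Uqcrb (-0.28), Uqcrq (-0.01), Cyc1 (-0.25), Cox5a (-0.14), Cox7a1 (-0.01), Cox7a2 (-0.01), Cox7b (-0.07), Atp5c1 (-0.13), Atp5d (-0.03), Atp5e (-0.05), Atp5f1 (-0.24), Atp5g1 (-0.24), Atp5l (-0.11) and Sdhd (-0.03). With equal RPKM totals, the sign turned for Uqcrfs1 (-0.12), Uqcrb (-0.10), Cyc1 (-0.08), Cox5a (-0.03), Cox7b (-0.01), Atp5e (-0.00), Atp5f1 (-0.07), Atp5g1 (-0.07) and Atp5l (-0.00). After centring, the sign turned for Uqcrfs1 (-0.09), Uqcrb (-0.07), Cyc1 (-0.05), Atp5f1 (-0.04) and Atp5g1 (-0.04). Without wt1 and wt2, the sign turned for Uqcrfs1 (-0.05) and Uqcrb (-0.00). Without wt3 and wt4, the sign turned for Cycs (0.01), Atp5a1 (0.00) and Atp5b (0.05). Without single libraries, the log2 fold change ranged from -0.10 to 0.03 for Cox6a2, with 0.02 without ko3, 0.03 without ko4 and 0.01 without wt3. For Atp5a1 it ranged from -0.05 to 0.00, with 0.00 without wt3, and for Atp5b from -0.04 to 0.03, with 0.01 without ko3 and 0.03 without wt3.

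The isoform differences without single libraries ranged from -0.58 to -0.44 for Cox6a2 less Cox6a1, from 0.28 to 0.35 for Atp5g2 less Atp5g3 and from -0.47 to -0.36 for Atp5g1 less Atp5g2. They did not pass with 4 knock-out libraries (exact permutation, adjusted p = 0.057). For Cox7a1 less Cox7a2 the range was -0.07 to 0.00. Without wt1 and wt2 the 3 differences were -0.44, 0.40 and -0.51 (exact permutation, adjusted p from 0.14 to 0.19), and without wt3 and wt4 -0.61, 0.24 and -0.34 (adjusted p = 0.095). The smallest exact p with 2 wild-type libraries is 0.048. Depth limits the lowest members most, with a counting error of up to 7.33% for Cox6a1.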
